A study of Mus musculus with 9 samples.

Results

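Hyaluronan is the long unbranched sugar polymer of the pericellular and vascular matrix. The genes described are 6 of the 17179 symbols in the deposited tables, chosen with the values of these libraries in view and matched by name. They are the hyaluronan synthases Has1 and Has2, the matrix organisers Tnfaip6 and Ptx3, the receptor Cd44 and the cell surface hyaluronidase Hyal2. They were measured by RNA sequencing in 9 libraries of aorta from C57BL/6J mice. Normal mice drank distilled water (2 libraries). The other mice were given BAPN, an inhibitor of lysyl oxidases, at 1 g/kg/day to induce dissection, and were killed on day 28. They received BAPN alone (2 libraries), BAPN with the AP-1 activator TPA at 50 ng/g/day injected into the peritoneum from day 1 (2 libraries), BAPN with the AP-1 inhibitor T-5224 at 5 mg/kg/day (2 libraries), or BAPN with coQ10 at 10 mg/kg/day (1 library, whose treatment label reads co110 and was taken to mean coQ10). T-5224 and coQ10 were given by gavage from day 7 or 14, and the labels state no first day for a library. The titles of T-5224 replicates 1 and 2 name 2 and 3 weeks, which may be the length of treatment. The 2 libraries are taken as replicates here. A difference in length of treatment cannot be told apart from the spread between them. The sources used here give neither the age and sex of the mice nor whether a library came from 1 mouse or a pool, so p-values measure only the spread between these samples, which may be technical. The groups with an added agent share BAPN, and there is no group with TPA, T-5224 or coQ10 alone.

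Hyaluronan is made at the plasma membrane by synthases that join UDP-glucuronic acid to UDP-N-acetylglucosamine and push the growing chain out of the cell. Tnfaip6 (TSG-6) moves heavy chains of the inter-alpha-inhibitor family onto the chain, Ptx3, a secreted pentraxin, holds such heavy chain complexes together, and Cd44 binds the polymer at the cell surface. Hyaluronidases cut it, at the surface (Hyal2) and in lysosomes (Hyal1). In arteries hyaluronan is known as a product of smooth muscle cells and fibroblasts that accumulates after injury.

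In GRCm38 (mm10), Has1 lies on chromosome 17 from 17833691 to 17855589, Has2 on chromosome 15 from 56665627 to 56694546 and Ptx3 on chromosome 3 from 66219887 to 66225806. Tnfaip6 lies on chromosome 2 from 52038113 to 52056681, Cd44 on the same chromosome from 102811141 to 102901669, and Hyal2 on chromosome 9 from 107567873 to 107572778. RefSeq promoter windows of GRCm38.p6 were found for 5 of the 6 genes, all but Has2. The 250 bases before the start are shown for the 3 genes whose BAPN libraries lay above all other libraries, since TPA and T-5224 act on AP-1. Capitals mark matches, on either strand, to AP-1 (TGANTCA), CRE (TGACGTCA), C/EBP (TTGCNNAA) or the NF-kB consensus.
Has1: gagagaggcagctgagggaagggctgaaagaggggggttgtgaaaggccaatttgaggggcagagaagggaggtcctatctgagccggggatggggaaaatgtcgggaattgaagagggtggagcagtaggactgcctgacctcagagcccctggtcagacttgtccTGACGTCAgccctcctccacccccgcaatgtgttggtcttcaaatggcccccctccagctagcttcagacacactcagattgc
Ptx3: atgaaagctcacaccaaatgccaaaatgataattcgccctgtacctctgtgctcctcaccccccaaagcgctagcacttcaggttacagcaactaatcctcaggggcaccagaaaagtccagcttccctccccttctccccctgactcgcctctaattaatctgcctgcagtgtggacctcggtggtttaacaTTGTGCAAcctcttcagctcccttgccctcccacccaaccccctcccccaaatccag
Tnfaip6: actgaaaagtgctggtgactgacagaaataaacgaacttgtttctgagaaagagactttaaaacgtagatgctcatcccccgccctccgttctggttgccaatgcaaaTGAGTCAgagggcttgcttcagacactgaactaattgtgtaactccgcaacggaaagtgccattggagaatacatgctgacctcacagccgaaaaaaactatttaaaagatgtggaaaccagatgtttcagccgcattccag
The window of Has1 is chr17:17855189-17855438 on the minus strand, that of Ptx3 chr3:66219637-66219886 on the plus strand and that of Tnfaip6 chr2:52037863-52038112 on the plus strand. The Has1 window lies inside the gene span given above, so its start is a start within that span and not the outer end of the gene. The same holds for the Hyal2 window (chr9:107568913-107569162). The Tnfaip6 window held TGAGTCA from 142 to 136 bases before the start, an AP-1 match that 6.75% of 32851 windows of this length share. The Has1 window held TGACGTCA from 83 to 76 bases before the start (CRE, 1.55% of windows). The Ptx3 window held TTGTGCAA from 57 to 50 bases before the start (C/EBP on the minus strand, 9.56% of windows). The Hyal2 window held an NF-kB match (7.25% of windows), and the Cd44 window matched none of the 4 motifs. The motifs do not contain one another, and a match is a stretch of letters, not a measured binding site.

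Values are FPKM as the authors deposited them, 1 per gene symbol, with unlisted genes taken as 0. FPKM are scaled to length, so levels of different genes can be set side by side. No counts were given, so the depth is unknown. The libraries listed between 13982 and 16204 genes. The FPKM sum ran from 502238 to 1802047. Haemoglobin genes held 68.9% to 74.1% of it in the BAPN and TPA libraries, 40.8% and 11.2% with T-5224, 5.40% with coQ10 and at most 1.25% in normal. The 6 smooth muscle markers (Acta2, Myh11, Tagln, Cnn1, Smtn and Lmod1) were listed in every library, with a summed level from 723 FPKM (BAPN replicate 2) to 18589 (normal replicate 2). Airway epithelium markers were uneven too (17074 in normal replicate 1, 12352 and 4629 with TPA, 4222 with T-5224 replicate 2). So were skeletal muscle markers (17.0 in normal replicate 2, 15.6 with T-5224 replicate 1 and 48.8 with coQ10, against 1350 to 12633 in the other libraries). The part of both marker sets in the results was not tested. T-5224 replicate 2 differed widely from replicate 1 for several genes below, and values of the chosen genes that were tested are given with and without it.

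The genes were chosen by their FPKM in these same libraries, so their levels and differences are a description and carry no test. Has1, Ptx3 and Tnfaip6 were highest in BAPN, lower in TPA and low in normal, T-5224 and coQ10. Hyal2 ran the other way, and Cd44 overlapped between neighbouring groups throughout. Has2 was low in every library. The plot of levels by library shows these patterns.

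**Figure D1:**
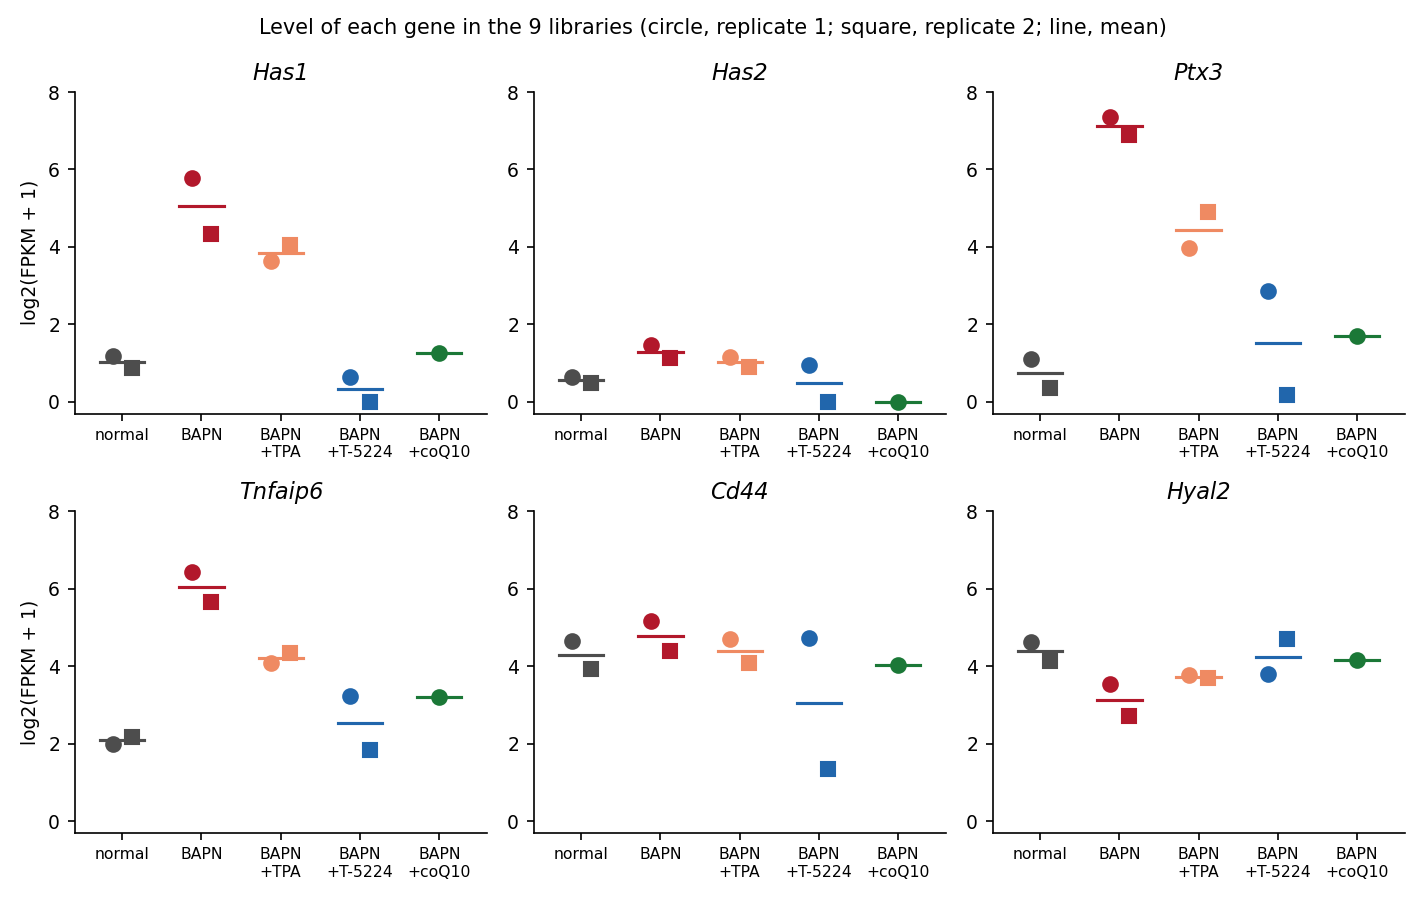
Level of each of the 6 genes in the 9 libraries, as log2 of FPKM plus 1 on the vertical axis, by group on the horizontal axis. Circles are replicate 1, squares replicate 2 and lines the group mean. Both BAPN libraries lie above all other libraries for Has1, Ptx3 and Tnfaip6, and T-5224 replicate 2 is the lowest library for Cd44.

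Has1 makes hyaluronan at the cell surface. It was at 1.29 and 0.83 FPKM in normal aorta, 53.99 and 19.26 in BAPN, 11.55 and 15.54 with TPA, 0.57 with T-5224 replicate 1 and 1.41 with coQ10, and it was not listed in T-5224 replicate 2. BAPN was the highest group and TPA the next, and no neighbours in the order of groups (BAPN, TPA, coQ10, normal, T-5224) overlapped. The mean was 36.6 ± 24.6 FPKM in BAPN against 1.06 ± 0.325 in normal (SD, n = 2 each), a difference of 4.03 on the log2(FPKM + 1) scale (SE 0.522). Relative to the median of all tested genes, which was -0.51 in that comparison, the difference was 4.54. The log2 difference from BAPN was -1.21 (SE 0.522) in TPA, -4.74 (SE 0.522) in T-5224 and -3.79 (SE 0.639) in coQ10. Without T-5224 replicate 2 the T-5224 value was -4.41. The spread within BAPN was wide: the TPA difference ran from -1.93 to -0.49 when single libraries were left out, the ends being without BAPN replicates 2 and 1.

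Has2, the synthase needed for heart formation in the mouse embryo, was at 0.57 and 0.40 FPKM in normal, 1.78 and 1.18 in BAPN, 1.25 and 0.86 with TPA and 0.94 with T-5224 replicate 1, and was not listed in T-5224 replicate 2 or coQ10. Its mean over the 9 libraries, 0.776 FPKM, was under the minimum of 1 for testing, so 5 of the 6 genes entered the fit of tested genes. In a fit without that minimum BAPN differed from normal by 0.73 (SE 0.339) and TPA from BAPN by -0.27 (SE 0.339), with overlapping libraries in the latter. The 2 BAPN libraries lay above both normal libraries, and TPA lay above normal as well.

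Has3, the third synthase and not among the chosen genes, was at 1.55 and 5.77 FPKM in normal, 0.15 in BAPN replicate 1, 0.57 and 0.61 with TPA, 0.44 with T-5224 replicate 1 and 1.24 with coQ10. It was not listed in BAPN replicate 2 or T-5224 replicate 2. BAPN against normal gave -1.95 (SE 0.561, limma adjusted p = 0.0782). The make-up of the synthase RNA differed accordingly. Has1 held 37.8% and 11.9% of the summed FPKM of the 3 synthases in normal, 96.5% and 94.2% in BAPN, 86.4% and 91.4% in TPA, 29.2% in T-5224 replicate 1 and 53.2% in coQ10. The sum itself was 3.41 and 7.00 FPKM in normal against 55.9 and 20.4 in BAPN and 13.4 and 17.0 with TPA. In T-5224 replicate 2 no synthase was listed.

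**Figure D2:**
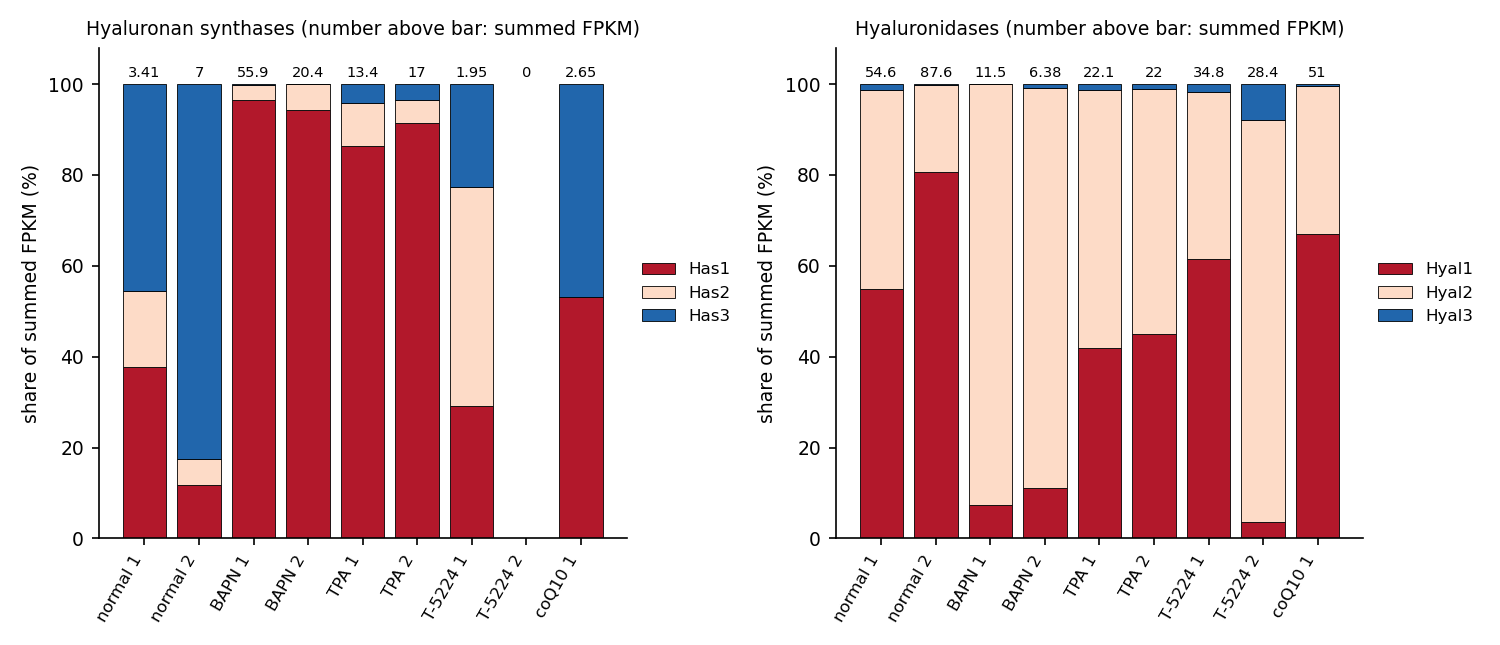
Share of each gene in the summed FPKM of the 3 hyaluronan synthases (left) and of the 3 hyaluronidases (right), in percent, for each library, with the summed FPKM above each bar. Has1 makes up at least 86.4% of the synthase sum in the BAPN and TPA libraries and at most 53.2% in the other libraries where a synthase was listed, and Hyal1 makes up 7.30% and 11.1% of the hyaluronidase sum in BAPN.

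The synthases draw on sugar nucleotides made by 7 listed genes of the precursor pathway, and none of these passed in any of the 4 comparisons (limma, Benjamini-Hochberg adjustment over all 12997 tested genes). In BAPN against normal 4 of the 7 had an unadjusted p under 0.05, 2 higher and 2 lower. Ugdh, which makes UDP-glucuronic acid, was at 43.60 and 37.72 FPKM in normal, 157.60 and 74.18 in BAPN, 51.26 and 42.72 with TPA, 40.01 and 28.36 with T-5224 and 39.67 with coQ10. Both BAPN libraries were above the other 7, and the log2 difference was 1.39 (SE 0.414, adjusted p = 0.0821). Gfpt2, an isoform of the first enzyme of the hexosamine pathway, was at 39.94 and 21.48 FPKM in normal and 108.15 and 49.14 in BAPN (1.29, SE 0.501, adjusted p = 0.133). Uap1, which makes UDP-N-acetylglucosamine, was at 33.44 and 24.80 FPKM in normal and 81.62 and 44.67 in BAPN (1.04, SE 0.448, adjusted p = 0.161). These 3 differences kept their sign in all but 1 of the 17 alternative analyses, the exception being the rescaling of each library to a common sum (TPM). Alternatives that keep the same values in both groups cannot change a difference, so its sign is fixed there. The other hexosamine isoform, Gfpt1, pointed the other way, at 12.46 and 10.68 FPKM in normal against 3.93 and 5.09 in BAPN (-1.19, SE 0.447, adjusted p = 0.123). Pgm3 was lower as well, at 5.01 and 3.10 FPKM in normal against 1.59 and 1.61 in BAPN (-0.93, SE 0.349, limma adjusted p = 0.123). Ugp2 (-0.59, SE 0.384) and Gnpnat1 (-0.59, SE 0.450) were also below 0, Gnpnat1 with overlapping libraries. The median of the 7 genes was -0.59, against -0.51 for all tested genes.

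Tnfaip6, the enzyme of heavy chain transfer, was at 2.99 and 3.51 FPKM in normal, 84.77 and 49.70 in BAPN, 15.94 and 19.19 with TPA, 8.32 and 2.58 with T-5224 and 8.30 with coQ10. The BAPN libraries were above all others, the TPA libraries came next, and the ranges of coQ10, T-5224 and normal overlapped in that order. BAPN had 67.2 ± 24.8 FPKM and normal 3.25 ± 0.368 (SD, n = 2 each), a mean 20.7 times as high and a log2 difference of 3.96 (SE 0.497), or 4.47 relative to all genes. Against BAPN the log2 difference was -1.83 (SE 0.497) in TPA, -3.51 (SE 0.497) in T-5224 and -2.83 (SE 0.608) in coQ10. Without T-5224 replicate 2 it was -2.82 with T-5224.

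Ptx3 had the widest range of the 6 genes. It was at 1.15 and 0.29 FPKM in normal, 162.06 and 117.80 in BAPN, 14.72 and 28.78 with TPA, 6.22 and 0.13 with T-5224 and 2.27 with coQ10. In the BAPN libraries it exceeded 97.4% and 97.0% of all symbols, and in the normal libraries 23.1% and 24.6%. Both BAPN libraries were above both TPA libraries, these were above the remaining 5, and coQ10 lay inside the range of T-5224. BAPN had 139.9 ± 31.3 FPKM against 0.720 ± 0.608 in normal (SD, n = 2 each), a log2 difference of 6.39 (SE 0.839) that ranked 10 of 12997 genes from the highest. The difference from BAPN was -2.69 (SE 0.839) in TPA, -5.61 (SE 0.839) in T-5224 and -5.41 (SE 1.03) in coQ10. In T-5224 it ranked 4 from the lowest. Without T-5224 replicate 2 the T-5224 value was -4.27. The ratio of Ptx3 to Tnfaip6, both in FPKM, was 0.385 and 0.0826 in normal, 1.91 and 2.37 in BAPN, 0.924 with TPA replicate 1, 0.748 and 0.0504 with T-5224 and 0.273 with coQ10, so Ptx3 exceeded Tnfaip6 in both BAPN libraries and in TPA replicate 2.

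The heavy chains that Tnfaip6 transfers come from members of the Itih family, and which of the genes below supply them was not examined. Ambp encodes the light chain bikunin. Of these 6 genes 4 reached the minimum level, and none passed in any comparison. Itih2 was at 9.72 and 20.08 FPKM in normal, 3.63 and 1.08 in BAPN, 5.25 and 4.70 with TPA, 15.76 and 4.22 with T-5224 and 27.71 with coQ10. BAPN against normal gave -2.28 (SE 0.662, limma adjusted p = 0.0795), the opposite sign to Tnfaip6. Itih4, the most abundant, was at 67.31 and 97.17 FPKM in normal and 38.75 and 9.19 in BAPN (-2.02, SE 0.643, adjusted p = 0.0919). Itih5 was at 11.87 and 2.59 against 3.88 and 5.88 FPKM, with overlapping libraries (-0.23, SE 0.601). That sign was kept in 13 of 17 alternatives, counting those that cannot change it. Itih1 and Ambp stayed at or below 0.80 FPKM in every library.

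**Figure D3:**
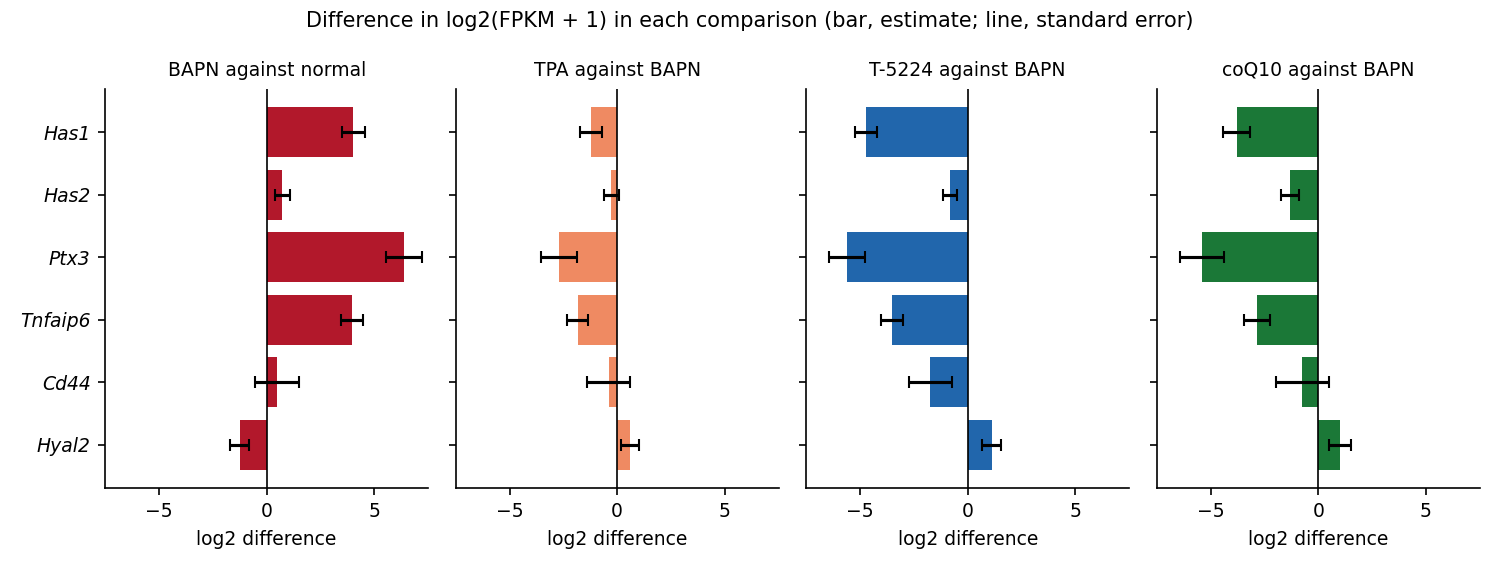
Difference of each of the 6 genes on the log2(FPKM + 1) scale for BAPN against normal and for each added agent against BAPN alone. Bars are estimates and lines standard errors. Has1, Ptx3 and Tnfaip6 lie above 0 in the first panel and below 0 in the others, and the 3 later panels share the BAPN libraries.

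Cd44, the main receptor for hyaluronan on the cell surface, was at 24.04 and 14.21 FPKM in normal, 34.61 and 19.95 in BAPN, 24.87 and 15.83 with TPA, 25.69 and 1.54 with T-5224 and 15.30 with coQ10. No neighbours in the order BAPN, TPA, normal, coQ10, T-5224 were separated, and within normal, BAPN and TPA the replicates differed by more than the means of BAPN and normal did. BAPN against normal was 0.49 (SE 1.01), and TPA against BAPN -0.39 (SE 1.01). The T-5224 difference of -1.73 (SE 1.01) rested on 1 library and was -0.03 without T-5224 replicate 2. The sign of Cd44 in BAPN against normal and in coQ10 against BAPN (-0.74, SE 1.23) changed with rescaling to TPM, to -1.11 and 0.66.

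Of 7 other hyaluronan receptors 5 reached the minimum level, and none passed in any comparison. Layn (layilin) was nearest to the threshold in BAPN against normal, at 13.89 and 20.84 FPKM in normal and 5.92 and 7.43 in BAPN (-1.24, SE 0.294, limma adjusted p = 0.0583), with 35.06 with coQ10. Lyve1, the receptor of lymphatic endothelium and of some macrophages, was at 39.30 and 18.57 FPKM in normal and 26.89 and 32.98 in BAPN (0.13, SE 0.957, adjusted p = 0.935). Tlr2, which has been described as a sensor of hyaluronan fragments, was at 4.25 and 2.12 against 4.72 and 2.82 FPKM (0.21, SE 0.549, adjusted p = 0.812). The signs of Lyve1 and Tlr2 were each kept in 14 of 17 alternatives, counting those that cannot change them.

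Hyal2, which cuts long hyaluronan chains at the cell surface, was at 23.89 and 16.60 FPKM in normal, 10.66 and 5.62 in BAPN, 12.57 and 11.87 with TPA, 12.85 and 25.08 with T-5224 and 16.72 with coQ10. The BAPN libraries were the lowest of the 9, and TPA lay between BAPN and coQ10 without overlap. Of all tested genes, 51.1% were lower in both BAPN libraries than in both normal libraries. The mean was 8.14 ± 3.56 FPKM in BAPN against 20.2 ± 5.15 in normal (SD, n = 2 each), a log2 difference of -1.25 (SE 0.431), or -0.74 relative to all genes. Against BAPN the difference was 0.59 (SE 0.431) in TPA, 1.11 (SE 0.431) in T-5224 and 1.01 (SE 0.528) in coQ10. Without T-5224 replicate 2 the T-5224 value was 0.66. With haemoglobin genes left out and the rest scaled to a common sum, Hyal2 was at 13.2 and 14.4 FPKM with T-5224. Normal was then at 23.4 and 18.7 and BAPN at 11.8 and 6.74, so T-5224 lay between them. The signs of the Hyal2 differences were kept in all alternative analyses, counting those that cannot change them.

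Hyal1, the lysosomal hyaluronidase encoded beside Hyal2 on chromosome 9 (107576950 to 107581699), varied far more than Hyal2. It was at 29.97 and 70.72 FPKM in normal, 0.84 and 0.71 in BAPN, 9.23 and 9.89 with TPA, 21.36 and 1.04 with T-5224 and 34.13 with coQ10. Both BAPN libraries were below all others. BAPN against normal gave -4.73 (SE 1.02, limma adjusted p = 0.0541) and just missed the threshold. It passed there without T-5224 replicate 1 or without T-5224 replicate 2, as did 28.0% and 28.2% of all genes. Against BAPN, TPA differed by 2.57 (SE 1.02, adjusted p = 0.482), T-5224 by 1.93 (SE 1.02, adjusted p = 0.348) and coQ10 by 4.31 (SE 1.25, adjusted p = 0.191). The T-5224 value was 0.20 without T-5224 replicate 1 and 3.66 without replicate 2. Hyal1 was 1.25 and 4.26 times the level of Hyal2 in normal, 0.0788 and 0.126 times in BAPN, 0.734 and 0.833 times in TPA, 1.66 and 0.0415 times in T-5224 and 2.04 times in coQ10. Hyal3, the third gene of the cluster, overlaps Hyal1, so some reads of the pair may not be separable, and it stayed at or below 2.27 FPKM. Of the 5 tested breakdown genes other than Hyal2 none passed in any comparison, and all 5 were below 0 in BAPN against normal, with a median of -0.76.

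**Figure D4:**
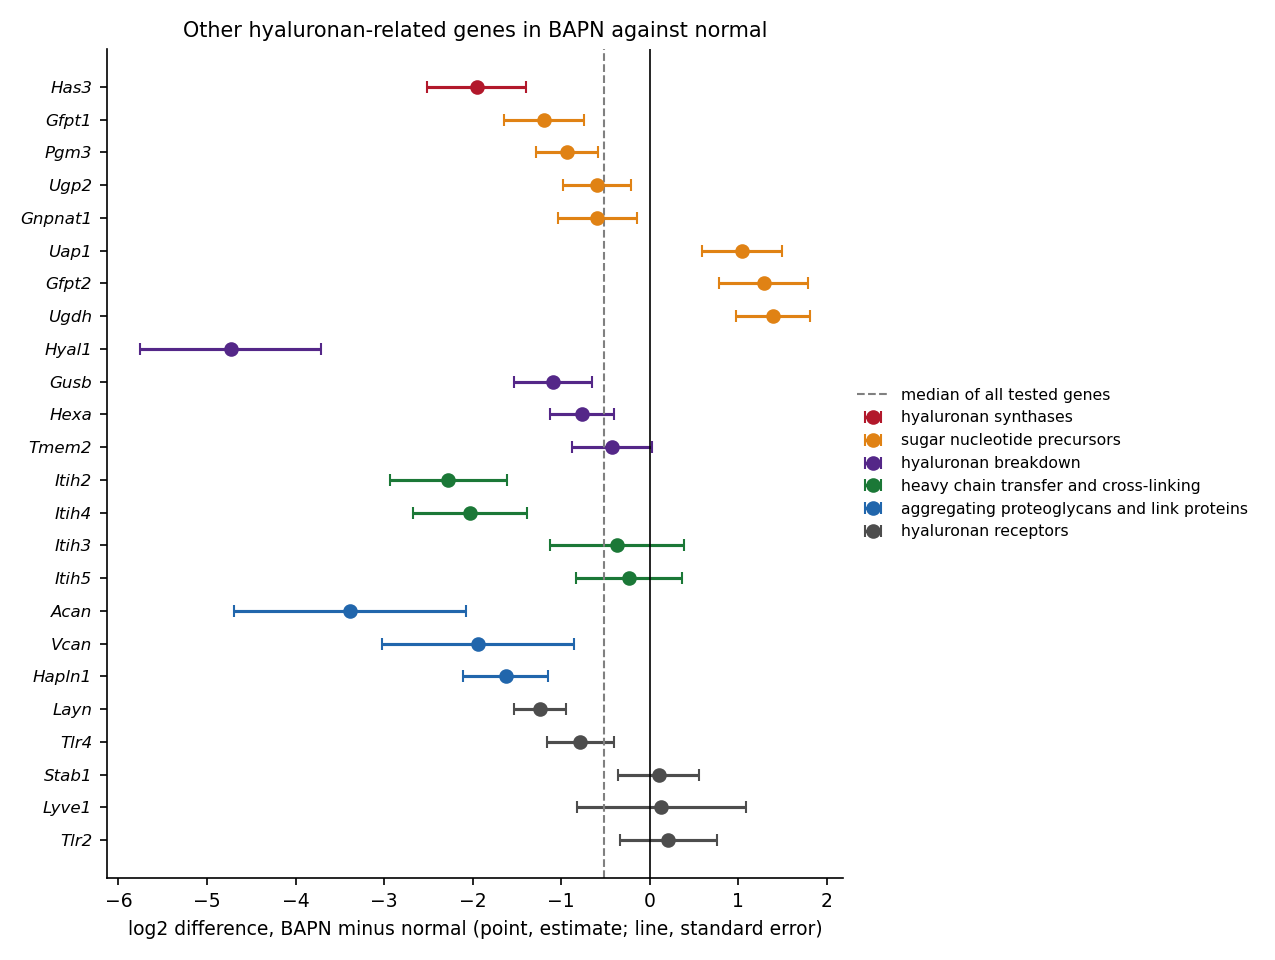
Log2 difference between BAPN and normal for 24 of the 25 tested genes of hyaluronan biology outside the 6 chosen ones, coloured by list. Points are estimates, lines standard errors and the dashed line the median of all tested genes (-0.51). Ugdh, Gfpt2 and Uap1 lie highest and Hyal1 lowest, and none of the 24 passed an adjusted p of 0.05.

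The aggregating proteoglycans bind hyaluronan through link modules, and link proteins lock that bond. Of 8 such genes 3 reached the minimum level and none passed in any comparison. Acan (aggrecan) was at 20.57 and 11.75 FPKM in normal, 1.15 and 0.18 in BAPN, 14.61 and 10.31 with TPA, 32.79 and 0.42 with T-5224 and 35.71 with coQ10, and BAPN against normal gave -3.38 (SE 1.31, limma adjusted p = 0.132). Vcan (versican) was at 16.13 and 48.22 against 9.47 and 4.48 FPKM (-1.94, SE 1.09, adjusted p = 0.258). The link protein Hapln1 was at 4.56 and 1.58 against 0.16 and 0.30 FPKM (-1.62, SE 0.481, adjusted p = 0.0818). All 3 were lower in both BAPN libraries than in both normal libraries, as were 51.1% of all tested genes.

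Over the 4 comparisons, none of the 25 tested genes outside the chosen 6 passed in limma. At an unadjusted p under 0.05 there were 12 in BAPN against normal (2 higher, 10 lower), 5 in TPA against BAPN, 5 in T-5224 against BAPN and 10 in coQ10 against BAPN. Among all tested genes 3.26%, 0.0385%, 0.0308% and 0.0154% passed in these comparisons, and 32.4%, 10.2%, 18.3% and 19.8% had an unadjusted p under 0.05. The median difference of the 25 genes was -0.76, 0.41, 0.54 and 0.46, against -0.51, 0.18, 0.35 and 0.39 for all tested genes. In BAPN against normal 7 of the 25 passed without T-5224 replicate 1 and 7 without replicate 2, where 28.0% and 28.2% of all genes passed, so the share of the 25 was that of all genes. They were Has3, Ugdh, Gfpt1, Hyal1, Itih2, Acan and Layn in either case, of which Ugdh was higher and the others lower. In coQ10 against BAPN, Hyal1 and Acan passed, as higher, without T-5224 replicate 2, where 0.8% of all genes passed.

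Of the 5 tested chosen genes, Has1, Ptx3 and Tnfaip6 passed in BAPN against normal, where 3.26% of all genes did (0.9% as higher, 2.36% as lower). None passed in TPA against BAPN (0.0385% of genes, 0.0231% as higher and 0.0154% as lower), in T-5224 against BAPN (0.0308%, all lower) or in coQ10 against BAPN (0.0154%, all lower). At an unadjusted p under 0.05 there were 2, 4 and 3 of the 5 in these 3 comparisons. Because the genes were picked with these values in view, nothing is read from these counts. In BAPN against normal the count was 0 when any 1 of the normal, BAPN or TPA libraries was left out (at most 0.708% of all genes), 4 without T-5224 replicate 1 (28.0%) or replicate 2 (28.2%) and 3 without coQ10 (3.09%). It was 0 with no minimum level (0.309%) and with the replicate block (0.0616%), 1 with an offset of 0.1 (1.17%), 1 with the libraries of the 2 groups alone (0.285%) and 2 with haemoglobin left out (0.216%). It was 3 with median-of-ratios scaling (1.74%), 4 with TPM (74.1%) and 3 without normal replicate 1 and T-5224 replicate 2 (31.0%). In TPA against BAPN 2 passed with the libraries of the 2 groups alone (7.48%) and without that pair of libraries (7.87%). In T-5224 against BAPN 3 passed without T-5224 replicate 1 (0.654%), 3 with median-of-ratios scaling (0.269%), 4 with TPM (24.4%), 1 with haemoglobin left out (0.1%) and 3 without the pair (17.3%). In coQ10 against BAPN 1 passed without T-5224 replicate 1 (0.192%) or replicate 2 (0.8%), 3 with TPM (56.4%) and 3 without the pair (22.8%). For these 3 genes both BAPN libraries were above both normal libraries, as for 15.0% of tested genes, and for Hyal2 both were below, as for 51.1%. In TPA against BAPN the same 3 were below without overlap (21.2% of genes) and Hyal2 above (41.4%). In T-5224 against BAPN the shares of all genes were 12.8% below and 34.2% above. In coQ10, where 1 library allows no such rule, the 3 genes were at least 1 log2 unit lower than the BAPN mean, as were 10.2% of genes, and Hyal2 at least 1 higher, as were 22.2%.

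Markers of other cells moved with some of these values. The 6 smooth muscle markers summed to 6301 and 18589 FPKM in normal, 1950 and 723 in BAPN, 2274 and 2882 with TPA, 12948 and 3135 with T-5224 and 10441 with coQ10, beside the lower Hyal1, Acan and Vcan in BAPN, and their part was not tested. In BAPN against normal the sums were 60.9 and 540 against 33.8 and 1.18 FPKM for B cell markers, and 17.1 and 129 against 9.34 and 1.70 for T cell markers. BAPN replicate 2 held most of both BAPN sums. Cd79b, Ms4a1 and Cd4 overlapped between the groups and were lower in BAPN replicate 1 than in normal replicate 1. The other markers of these lists were higher in both BAPN libraries, Cd3e barely so (1.87 in BAPN replicate 1 against 1.85 in normal replicate 1). Lymphatic endothelium markers summed to 181 and 1646 against 112 and 30.0 FPKM. Most of that difference lay in Ccl21a, at 115 and 1593 against 28.9 and 3.44 FPKM. Reln was also higher in both BAPN libraries, whereas Prox1, Pdpn, Flt4 and Lyve1 overlapped between the groups. The 6 neutrophil markers (S100a8, S100a9, Csf3r, Cxcr2, Retnlg and Ly6g) summed to 31.8 and 25.4 FPKM in normal and 1886 and 1074 in BAPN. The sums were 781 and 245 with TPA and 143 and 375 with T-5224, and coQ10 lay between normal and T-5224. Ly6g was listed only in BAPN replicate 1 and TPA replicate 1. Csf3r and Cxcr2 were highest in TPA replicate 1, at 21.2 and 7.42 FPKM. In BAPN, Csf3r was at 9.18 and 6.21 FPKM and Cxcr2 at 3.17 and 3.05. Neutrophils store Ptx3 protein. The red blood cell markers summed to 7236 and 5200 FPKM in normal and 1127605 and 1337469 in BAPN. With TPA they summed to 1018190 and 1017302 FPKM. The part of blood cells in the levels of Has1, Ptx3 and Tnfaip6 was not tested. Mesothelium, which makes hyaluronan, gave 300 and 4.54 FPKM over its 6 markers in normal and 2.76 and 1.17 in BAPN, where Upk1b was not listed. Its part in the level of Has1 was not tested. Fibroblast markers summed to 1294 and 692 FPKM in normal and 836 and 879 in BAPN, and macrophage markers to 193 and 66.0 against 135 and 55.9. In bulk tissue, fewer cells of a type and less RNA per cell cannot be told apart. With haemoglobin genes left out and the rest scaled to a common sum, Has1 was at 1.27 and 0.936 FPKM in normal and 59.6 and 23.1 in BAPN, Tnfaip6 at 2.93 and 3.96 against 93.6 and 59.6, and Ptx3 at 1.13 and 0.327 against 179 and 141.

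The genes with the most similar pattern were found by the root mean square, over the 9 libraries, of the distance between log2(FPKM + 1) profiles centred on their own means. For Ptx3 they were the chemokine Cxcl2 (0.68), the cytokine Il6 (0.83) and the chemokine Cxcl1 (0.85), against a median of 2.76 over all tested genes. For Tnfaip6 they were the cytokine signalling inhibitor Socs3 (0.47), the cytokine Osm (0.48) and the adhesion molecule Selp (0.59), against a median of 1.77. For Has1 the nearest of all was Tnfaip6 (0.73), followed by Tmem59l (0.80) and Resp18 (0.82), with Ptx3 in place 22. Ptx3 in turn had Has1 in place 5 and Tnfaip6 in place 6. Cd44 lay nearest to Snrnp35 (0.36), Fbxl15 (0.36) and the macrophage growth factor Csf1 (0.42), genes that were likewise lowest in T-5224 replicate 2. Hyal2 lay nearest to Hbp1 (0.17), Crip2 (0.18) and Rsph3a (0.18), and the low Has2 to Gas2l3 (0.21), Mctp1 (0.22) and Psme3 (0.23). All genes share the libraries, so these distances describe this set of 9 and carry no test.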

How the data were processed

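Trizol RNA went into TruSeq libraries, per the labels' protocols. The deposited values are FPKM, as the authors computed them for each symbol, and leave out genes at 0. The submitters' processing notes name the mouse build mm10. Aligner, counting tool and annotation are not named in the labels or files. Sequencing depth is unknown: ratios of low values between libraries showed no shared step, with at most 2.25% of genes in any bin.

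The members and gene lists were chosen with earlier results of these data known. Symbols were joined over 9 libraries, with 0 for unlisted genes. The 12997 genes with a mean of at least 1 FPKM were fitted on log2(FPKM + 1), which understates changes of low genes, with limma 3.58.1 (R 4.3.3). The model had 5 groups, an intensity trend and 4 residual degrees of freedom shared by all libraries, and the lone coQ10 library was taken to vary as the others do. P-values were two-sided with Benjamini-Hochberg adjustment over all tested genes and a threshold of 0.05. The script was tested on simulated data. Alternatives were an offset of 0.1, no minimum, median-of-ratios scaling, TPM, haemoglobin left out, the 2 groups alone, a replicate block, each library left out, and normal replicate 1 with T-5224 replicate 2 left out. Named genes were the 6 members, the first and last tested gene of each list in BAPN against normal, any that passed, and the 3 nearest in pattern. 1 gene that this rule names is not reported here. Other genes named were chosen after their values were seen. Tables and plots used python 3.11.15, pandas 2.3.3, numpy 2.4.6 and matplotlib 3.10.9. RefSeq sequences were of GRCm38.p6.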

Additional observations from a re-analysis of the deposited data

How the results depend on the processing

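The log2 differences of the tested members kept their sign in 328 of 330 alternative fits, the exceptions being Cd44 with TPM in BAPN against normal and in coQ10 against BAPN. Many of these fits cannot change a difference, only its standard error. They are no minimum, the 2 groups alone, the replicate block and the leaving out of a library of another group. The count therefore overstates how far the signs were put to a trial.

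Counts of called genes were far less stable. For BAPN against normal, 424 genes passed (117 higher, 307 lower), against 152 with an offset of 0.1, 53 without a minimum, 226 with median-of-ratios scaling (196 higher, 30 lower), 9637 with TPM (156 higher, 9481 lower), 28 with haemoglobin left out (26 higher, 2 lower), 37 with the 2 groups alone, 8 with the replicate block and 4032 with normal replicate 1 and T-5224 replicate 2 left out, and from 0 to 3670 when 1 library was left out. The median of all genes was -0.51 as deposited, -0.01 with median-of-ratios scaling, -0.40 with haemoglobin left out and -1.92 with TPM. For TPA against BAPN, 5 passed, against 0, 9, 2 (TPM), 972 (2 groups alone), 2 (replicate block) and 1023 (both left out), and from 0 to 9 when 1 library was left out. For T-5224 against BAPN, 4 passed, against 2, 2, 35 (median-of-ratios), 3168 (TPM, 3045 higher and 123 lower), 13 (haemoglobin left out), 0 (2 groups alone), 0 (replicate block) and 2245 (both left out, 1442 higher and 803 lower), and from 0 to 85. For coQ10 against BAPN, 2 passed, against 1, 7, 10 (median-of-ratios), 7328 (TPM, 7206 higher and 122 lower), 0 (2 groups alone) and 2967 (both left out, 2214 higher and 753 lower), and from 0 to 104. The first 2 values of each list are the offset of 0.1 and no minimum.

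Of the 25 other hyaluronan genes, none passed as reported. With TPM 19 passed in BAPN against normal (19 lower), 5 in T-5224 (4 higher, 1 lower) and 12 in coQ10 against BAPN (12 higher). With normal replicate 1 and T-5224 replicate 2 left out, 8, 2, 7 and 9 passed in the 4 comparisons in the order above. With the 2 groups alone 2 passed in TPA against BAPN. Leaving out 1 library gave 0 to 7 in BAPN against normal, 0 to 2 in coQ10 and 0 in the other comparisons. With the replicate block none passed.

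Numbers shared between groups name no common animal or day. Deviations of same-numbered libraries correlated at -0.44 to 0.18 over 6 pairs of groups, so the replicate block is not read as a pairing. It allowed no value for coQ10. The cause of these shifts was not tested. The unknown depth limits values near 0, such as those of Has2 and Has3.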
